A study of Homo sapiens with 8 samples.

Results

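The mitochondrial respiratory chain and the ATP synthase were followed in 8 arrays of K562 cells, as the genes whose symbols mark them as subunits or as named assembly factors of complexes I to V. Genes were taken where a probe set of the array carried a single symbol starting with NDUF, SDHA to SDHD, SDHAF, UQCR, UQCC, COX followed by a number, or ATP5, together with CYC1 and CYCS. That rule gave 113 of the 19775 genes measured, of which 109 are protein coding and 4 are noncoding transcripts named after a neighbouring gene. Pseudogenes, 2 in number, were left out, and 20 probe sets that carried several symbols were set aside. The 109 coding genes were split into 82 subunits and 27 assembly factors. The carrier CYCS and the inhibitor ATP5IF1 were counted among the subunits. For each gene the probe set that was brightest on average stood for it.

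K562 is an established human leukaemia line with erythroid features. The first group was 4 samples treated with 1 µM beta-estradiol for 6 h, and its control was 4 samples given ethanol vehicle for the same time. All 8 samples stably carried p42-C/EBPα-ER, the full-length form of a myeloid transcription factor joined to an estrogen-responsive domain that moves the fusion into the nucleus when estradiol is added. No cells without the fusion were analysed here, so an effect of estradiol alone and an effect of the fusion cannot be told apart. The titles call the samples biological replicates and say nothing more of how they were separated, so the p-values below rest on the spread among these 8 samples, which may be technical. All 6 measured markers of K562 and erythroid cells lay above the median of every array, GATA1 (−0.89) and HBE1 (−0.17) among them fell, and EPCAM, an epithelial marker, lay at 10.9. HBE1 differed by −0.08 for the mean of its probe sets and was not called (limma adjusted p = 0.351). The part of these shifts in the results below was not tested. Vehicle replicate 2 had the lowest upper quartile of the gene levels, 8.13, where the other 7 arrays had 8.20 to 8.27.

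Complexes I and II pass electrons from NADH and from succinate to coenzyme Q, complex III passes them on to cytochrome c, complex IV reduces oxygen, and complex V uses the proton gradient built on the way to make ATP. Most subunits are encoded in the nucleus, and a few core subunits are encoded in mitochondrial DNA. Assembly factors are proteins that insert metal centres, haem or flavin, or hold part-built modules together, and they are not part of the finished enzyme.

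Subunit transcripts differed by little after estradiol, while 7 assembly factor transcripts fell. Of the 109 coding genes 4 rose and 7 fell, 10.1% in all (limma, Benjamini-Hochberg adjusted p below 0.05 over all genes), where 17.9% of all 19775 genes were called, 8.29% as higher and 9.6% as lower. Of the 82 subunits 2 rose and 0 fell, a share of 2.44%, and of the 27 assembly factors 2 rose and 7 fell, a share of 33.3%. The 2 subunits were NDUFS4 and the inhibitor ATP5IF1. The median difference, estradiol minus vehicle on the log2 scale, was 0.03 for the subunits and −0.08 for the assembly factors, against −0.03 for all genes. Estradiol and vehicle arrays were fully separate in 21 subunits (25.6%) and in 14 assembly factors (51.9%), against 24.1% of all genes. Above the upper quartile of all gene means, where most of them lie, the shares were 28.0% of the subunits and 61.9% of the assembly factors, against 51.2% of all genes there. These shares are descriptions and were not tested against each other.

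How many subunits were called depended on the genes fitted and on the variance model. The limma model lends every gene the spread of all genes, and most subunit probe sets lie in the bright part of the array, with 75 of 82 above the upper quartile of all gene means. Of these 75 subunits 2.67% were called, and of the 21 assembly factors above the same limit 42.9%, against 35.5% of the 4944 genes above it, 17.7% as higher and 17.8% as lower. When the model was refitted on those 4944 genes, 13 subunits were called higher and 3 lower, 21.3% of 75, and 4 assembly factors higher and 12 lower, 76.2% of 21, against 55.7% of all genes in that refit. A fit over all genes that changed 2 settings together, letting the spread follow the level and fitting it robustly, called 13 subunits higher and 4 lower, 20.7% of 82, and 3 assembly factors higher and 10 lower, 48.1% of 27, against 22.1% of all genes. The refit on 4944 genes also adjusted over fewer genes, and what each change contributed was not tested. Neither refit alters the differences themselves, and those of the subunits called in either ran from 0.06 to 0.20 in size on the log2 scale.

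The limits on the measured differences of the subunits can be read from their 95% intervals. The brightest subunit lay at 14.02, where the highest deposited log2 value was 14.39. Whether the arrays read differences in full at such levels was not tested. For 70 of the 82 subunits the interval of the difference lay within 0.2 on the log2 scale on either side of 0, and for 78 within 0.3. The 73 nuclear subunits without the tissue-restricted isoforms had 68 within 0.2. For assembly factors the numbers were 8 of 27 within 0.2 and 19 of 27 within 0.3. On each array, the mean log2 level over the 82 subunits was 11.11, 11.10, 11.11 and 11.11 with estradiol, against 11.11, 11.05, 11.10 and 11.10 with vehicle. The mean over the 27 assembly factors was 8.53, 8.52, 8.54 and 8.51 with estradiol, against 8.64, 8.53, 8.61 and 8.59 with vehicle. Vehicle replicate 2 was the lowest vehicle array for both, and its assembly factor mean lay among the estradiol arrays. Its part in the differences was measured by leaving it out, which gave a median of 0.02 for the subunits and −0.10 for the assembly factors.

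**Figure D1:**
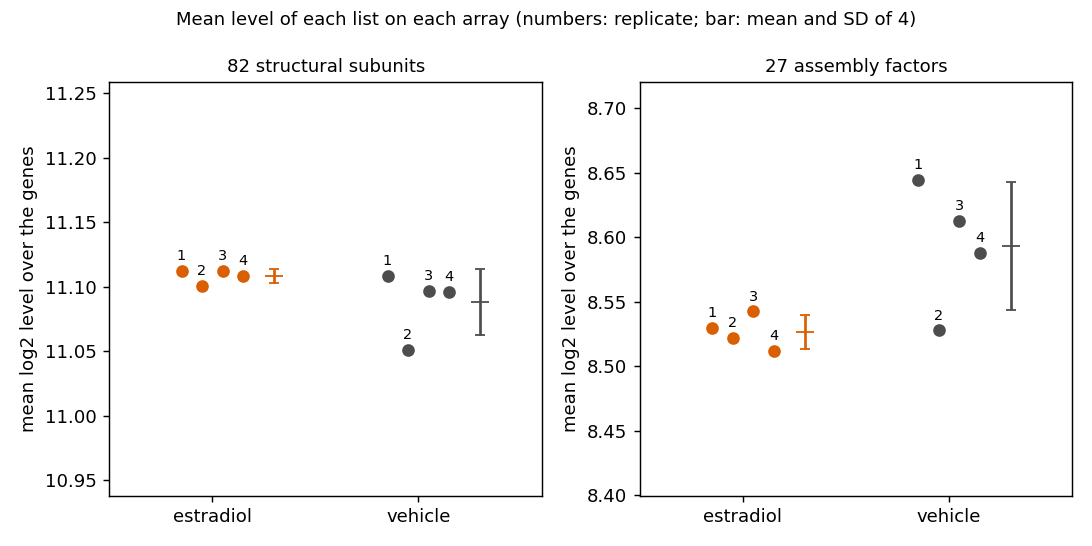
Mean log2 level over the 82 subunits (left) and the 27 assembly factors (right) on each of the 8 arrays, with the replicate number beside each point and a bar for the mean and SD of 4 arrays. The subunit means lie at 11.10 to 11.11 in both groups, apart from vehicle replicate 2 at 11.05. The assembly factor means are 8.51 to 8.54 with estradiol and, apart from vehicle replicate 2 at 8.53, 8.59 to 8.64 with vehicle.

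Because total RNA from whole cultures was measured, fewer cells of a kind and less RNA per cell cannot be told apart. The arrays were brought to a common distribution, so a change shared by most transcripts would not show. With 4 arrays in each group, the number of arrays limits the precision.

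In complex I, the NADH dehydrogenase and the largest enzyme of the chain, the split between subunits and assembly factors held for the factors named NDUFAF. Of its 33 subunits under the symbol rule 1 rose and 0 fell (3.03%), with a median difference of 0.03 and a range of −0.08 to 0.20. Of its 8 NDUFAF assembly factors 1 rose and 4 fell (62.5%), with a median of −0.16. The share called was 17.9% of all genes and 35.5% of those above the upper quartile. Of 12 complex I assembly factors with other names 1 rose and 2 fell (25%), with a median of −0.002. In the refit above the upper quartile 30.3% of the 33 subunits and 87.5% of the 8 factors were called, against 55.7% of all genes there. The mitochondrially encoded ND2, ND4 and ND6 lie outside the rule, differed by −0.07, −0.03 and −0.34 and were not called. Complex IV counts its COX1 to COX3, which fit the rule, so the sets are not alike between complexes. The nuclear core subunits of complex I carry the flavin and most of the iron-sulfur clusters, and 5 of them were measured. NDUFS1 differed by 0.14 ± 0.05 (SE, limma adjusted p = 0.0717), NDUFS3 by −0.04 ± 0.04, NDUFS7 by 0.07 ± 0.04, NDUFV1 by −0.06 ± 0.04 and NDUFV2 by 0.06 ± 0.05, and none of the 5 was called. NDUFS1, whose protein holds iron-sulfur clusters of the electron path, was the nearest to the threshold, with levels of 10.35 to 10.44 with estradiol and 10.18 to 10.31 with vehicle. NDUFS8 was not analysed here.

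NDUFS4, an accessory subunit next to the NADH-binding module, was the subunit of complex I that rose. Its log2 level was 9.41, 9.48, 9.46 and 9.50 with estradiol, against 9.31, 9.12, 9.32 and 9.32 with vehicle. All 4 estradiol arrays lay above all vehicle arrays, and vehicle replicate 2 stood apart below the other 3. The difference was 0.20 ± 0.06 (SE, 1.15-fold, limma adjusted p = 0.0421), and without vehicle replicate 2 it was 0.15 and was called. Leaving out any other array than vehicle replicate 2 ended the call, with adjusted p between 0.0536 and 0.115.

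The falls in complex I were in NDUFAF4, NDUFAF5, NDUFAF6 and NDUFAF8. NDUFAF5 hydroxylates the core subunit NDUFS7, and NDUFAF8 stabilises NDUFAF5. NDUFAF5 had log2 levels of 8.35, 8.27, 8.30 and 8.33 with estradiol, against 8.70, 8.48, 8.49 and 8.56 with vehicle. The difference was −0.25 ± 0.06 (SE, limma adjusted p = 0.0141). The 4 estradiol values were close together and all lay below the lowest vehicle value. NDUFAF8 had 10.81, 10.82, 10.81 and 10.79 with estradiol, against 11.06, 11.00, 10.93 and 10.92 with vehicle, giving a difference of −0.17 ± 0.04 (adjusted p = 0.0286). The groups did not overlap, and the vehicle arrays spread more widely than the estradiol arrays.

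NDUFAF4, which acts on early assembly intermediates, had log2 levels of 10.70, 10.65, 10.63 and 10.63 with estradiol, against 10.87, 10.76, 10.88 and 10.93 with vehicle, giving a difference of −0.21 ± 0.05 (SE, limma adjusted p = 0.0136). Vehicle replicate 2 was the lowest of its group and still above every estradiol array. NDUFAF6, an assembly factor that complex I needs early, had 8.84, 8.78, 8.84 and 8.74 with estradiol, against 9.15, 8.92, 9.00 and 9.04 with vehicle, giving a difference of −0.23 ± 0.06 (adjusted p = 0.0201). The groups were again separate. NDUFAF1, which joins the assembly of the membrane arm, went the other way, with 8.85, 8.88, 8.89 and 8.88 with estradiol, against 8.78, 8.68, 8.73 and 8.71 with vehicle, a rise of 0.15 ± 0.04 (adjusted p = 0.0251). Its groups did not overlap either. Of the other 3 factors, NDUFAF7, a methyltransferase, differed by −0.15 ± 0.05 (adjusted p = 0.0710), NDUFAF2, which acts late in assembly, by −0.00190 ± 0.05 and NDUFAF3, the partner of NDUFAF4, by 0.08 ± 0.04.

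The promoter of NDUFAF5 is shown because it holds the E-box, the CACGTG letters read by MYC and related factors, found in no other promoter listed for the genes that fell. The letters are the 130 bases before the start, chr20:13784898-13785027 of GRCh38.p14 on the plus strand, from RefSeq, and the capitals mark the E-box, which begins 126 bases before the start.
NDUFAF5: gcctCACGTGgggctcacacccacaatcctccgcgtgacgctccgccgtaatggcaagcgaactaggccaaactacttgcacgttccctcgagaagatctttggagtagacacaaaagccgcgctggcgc

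Complex II, succinate dehydrogenase, had 0 of 3 measured subunits called and a single fall among its assembly factors. Among all genes 17.9% were called, and among those above the upper quartile 35.5%. SDHA, the flavoprotein, had log2 levels of 11.12 to 11.19 with estradiol and 11.06 to 11.13 with vehicle, giving a difference of 0.04 ± 0.04 (SE, limma adjusted p = 0.572). The membrane anchors SDHC and SDHD differed by 0.03 ± 0.04 and 0.05 ± 0.05 (adjusted p = 0.746 and 0.555), and their groups overlapped. SDHB was not analysed here. SDHAF1, which helps insert iron-sulfur clusters into the SDHB subunit, had 8.11, 8.02, 8.19 and 8.04 with estradiol, against 8.56, 8.50, 8.53 and 8.46 with vehicle. Every estradiol array was below every vehicle array, by more than the spread within either group. The difference was −0.42 ± 0.05 (SE, 1.34-fold lower, adjusted p = 0.000401), the largest fall among the 109 genes. A dimmer probe set of SDHAF1 differed by −0.36 and was called as well. SDHAF3, which acts on the same subunit, differed by 0.06 ± 0.10, SDHAF2, which attaches the flavin to SDHA, by 0.05 ± 0.05, and SDHAF4, which binds flavin-loaded SDHA, by 0.11 ± 0.06, and none of the 3 was called.

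Complex III, the cytochrome bc1 complex, had 0 of 7 subunits called, with differences of −0.04 to 0.13. CYC1, the cytochrome c1 subunit, differed by −0.04 ± 0.04 (SE, limma adjusted p = 0.550). UQCRB, a small subunit at the coenzyme Q site, lay nearest to the threshold with 11.85, 11.83, 11.87 and 11.88 with estradiol, against 11.75, 11.67, 11.76 and 11.74 with vehicle, giving a difference of 0.13 ± 0.04 (adjusted p = 0.0551). Its groups did not overlap. All 6 measured assembly factors of complex III had a difference below 0, with a median of −0.14, and 2 of the 6 fell (33.3%). Among all 19775 genes 11622 had a difference below 0. The share called was 17.9% of all genes and 35.5% of those above the upper quartile.

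UQCC4, an assembly factor of complex III, had log2 levels of 8.56, 8.50, 8.60 and 8.51 with estradiol, against 8.95, 8.94, 8.93 and 8.95 with vehicle. The vehicle arrays agreed within 0.03, and all estradiol arrays lay well below them. The difference was −0.40 ± 0.04 (SE, 1.32-fold lower, limma adjusted p = 0.000145). UQCC1, a factor for the synthesis and stability of cytochrome b, had 9.31, 9.19, 9.27 and 9.22 with estradiol, against 9.44, 9.45, 9.42 and 9.46 with vehicle, giving a difference of −0.19 ± 0.04 (adjusted p = 0.0120). The groups did not overlap. UQCC2 and UQCC3, which also serve cytochrome b, differed by −0.08 ± 0.08 and −0.14 ± 0.06 (limma adjusted p = 0.636 and 0.160). UQCC5 and UQCC6 differed by −0.09 ± 0.06 and −0.15 ± 0.05 (limma adjusted p = 0.398 and 0.0681). UQCC2 was read at the dim level of 5.55, and its probe sets that carried several symbols were set aside.

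The promoters of SDHAF1 and UQCC4 are shown because these genes had the largest falls and were called under all 20 alternatives. The letters are the 150 bases before each start in GRCh38.p14, from RefSeq, chr19:35995038-35995187 on the plus strand and chr16:1420748-1420897 on the minus strand. No capitals appear because 0 of the 5 motifs searched, spelled out further on, was found in them.
SDHAF1: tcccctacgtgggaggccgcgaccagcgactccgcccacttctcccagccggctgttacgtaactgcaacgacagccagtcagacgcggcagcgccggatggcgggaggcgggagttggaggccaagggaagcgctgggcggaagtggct
UQCC4: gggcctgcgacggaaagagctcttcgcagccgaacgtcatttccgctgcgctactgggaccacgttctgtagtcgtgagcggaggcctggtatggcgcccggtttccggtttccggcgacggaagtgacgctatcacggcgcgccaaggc

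**Figure D2:**
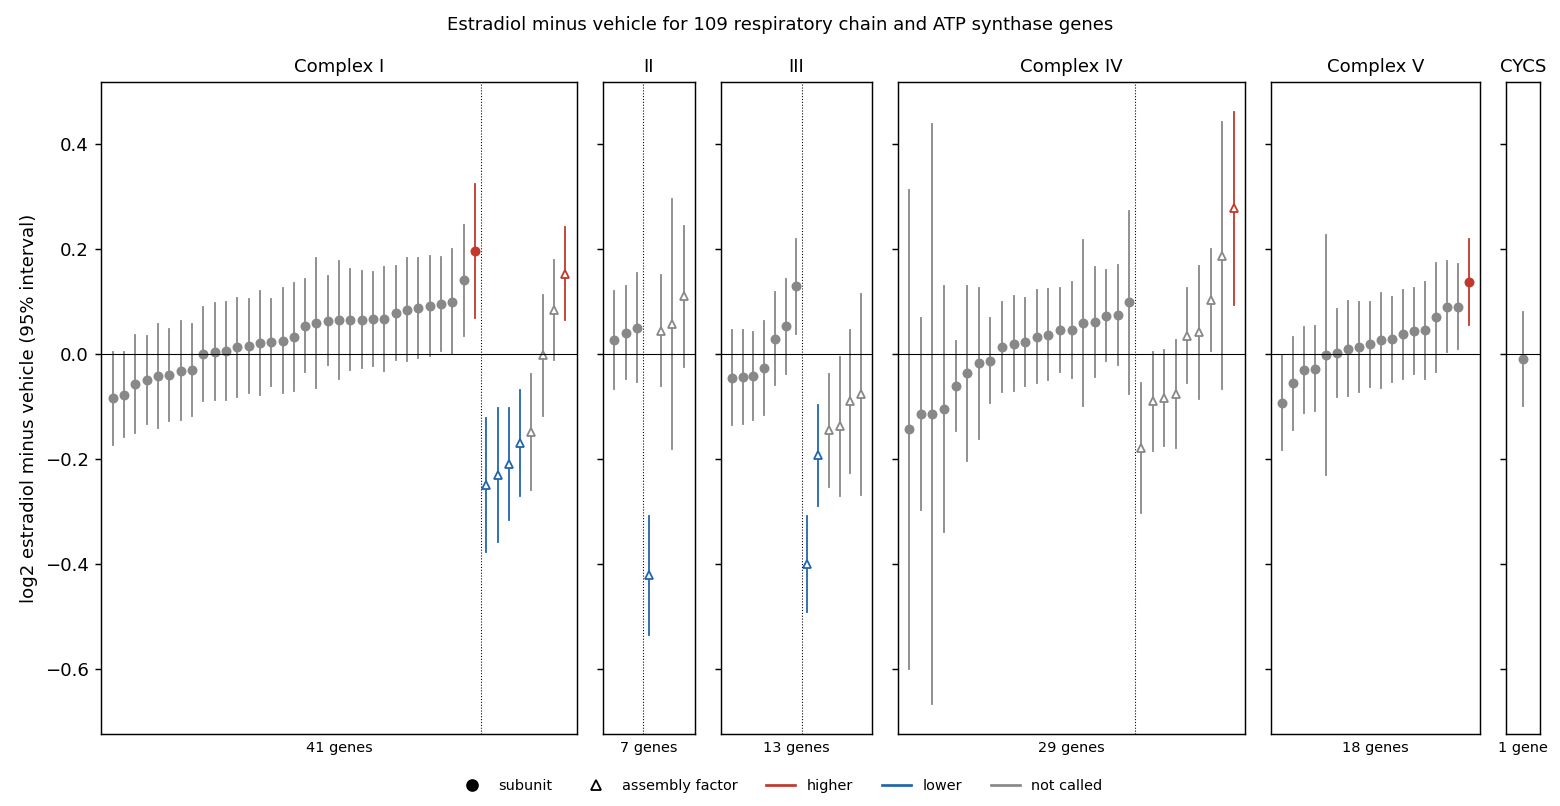
Difference of each of the 109 genes, estradiol minus vehicle on the log2 scale, with its 95% interval, ordered by size within the subunits (circles) and the assembly factors (triangles) of each complex, with red for called higher and blue for called lower. The 7 falls are all triangles, in complexes I, II and III, and the 4 rises are NDUFS4, NDUFAF1, COX15 and ATP5IF1.

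Complex IV, cytochrome c oxidase, had 0 of 20 subunits called, with differences of −0.14 to 0.10. The share called was 17.9% of all genes and 35.5% of those above the upper quartile. COX7B, a small nuclear subunit, had the smallest p among them without meeting the threshold, with a difference of 0.07 ± 0.04 (SE, limma adjusted p = 0.260). The 3 core subunits of this enzyme that are encoded in mitochondrial DNA carry the symbols COX1, COX2 and COX3 on the array. COX1 differed by −0.14 ± 0.20, where vehicle replicate 1 had 14.07 and the other 7 arrays 13.05 to 13.41, COX2 by −0.06 ± 0.04 and COX3 by 0.10 ± 0.08, and none was called. The 6 isoforms that are restricted to other tissues, COX4I2, COX6A2, COX6B2, COX7A1, COX7B2 and COX8C, had log2 levels of 2.65 to 6.53 and differences of −0.11 to 0.06, with 0 called. No detection calls were used, so whether these dim probe sets lay above background is unknown. The widest interval of all subunits was that of COX6B2, which reached −0.67.

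Of the 9 measured assembly factors of complex IV 1 rose and 0 fell (11.1%), with a median difference of 0.04. Of all genes 17.9% were called, and of those above the upper quartile 35.5%. COX15 and COX10 act in turn in the synthesis of haem A, the haem of this enzyme. COX15 had log2 levels of 8.51, 8.66, 8.53 and 8.58 with estradiol, against 8.30, 8.09, 8.49 and 8.29 with vehicle, a rise of 0.28 ± 0.08 (SE, 1.21-fold, limma adjusted p = 0.0441). The groups did not overlap, but vehicle replicate 3 came within 0.02 of the lowest estradiol array. The other 3 probe sets of COX15 differed by 0.03, 0.05 and −0.13, and with the mean of all 4 the difference was 0.06 (adjusted p = 0.683). COX10 had 8.12, 8.30, 8.35 and 8.25 with estradiol, against 8.45, 8.42, 8.41 and 8.47 with vehicle, giving a difference of −0.18 ± 0.05 that missed the threshold (adjusted p = 0.0535). The copper-handling factors COX11, COX17 and COX19 differed by 0.04 ± 0.04, 0.19 ± 0.11 and −0.08 ± 0.05, with COX17 at the dim level of 3.23.

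The COX15 promoter is shown for its match to the ETS letters CCGGAAG, read by the GABP factor among others. The letters are the 100 bases before the start, chr10:99732128-99732227 of GRCh38.p14 on the minus strand, from RefSeq, with the match in capitals.
COX15: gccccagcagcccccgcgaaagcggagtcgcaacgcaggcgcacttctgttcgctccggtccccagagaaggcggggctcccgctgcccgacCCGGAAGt

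CYCS, cytochrome c, carries electrons between complexes III and IV. Its log2 level was 12.87, 12.80, 12.85 and 12.86 with estradiol, against 12.85, 12.81, 12.87 and 12.88 with vehicle, giving a difference of −0.01 ± 0.04 (SE, limma adjusted p = 0.921). The groups overlapped, and the 95% interval ran from −0.10 to 0.08.

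Complex V, the ATP synthase, had 1 of its 18 genes under the symbol rule called (5.56%) and differences of −0.09 to 0.14. Among all genes 17.9% were called, and among those above the upper quartile 35.5%. The mitochondrially encoded ATP6 lies outside the rule, differed by 0.04 ± 0.05 (SE) and was not called. The 5 genes of the catalytic head and central stalk, ATP5F1A to ATP5F1E, had a median difference of −0.03. The 4 of the peripheral stalk had 0.03, the 3 of the rotating c-ring 0.01 and the 5 other membrane subunits 0.03, with 0 called in each. The catalytic subunits ATP5F1A and ATP5F1B both differed by −0.03 ± 0.04 (SE, limma adjusted p = 0.701 and 0.675). The exception was ATP5IF1, which blocks the reverse reaction, the breakdown of ATP. It had log2 levels of 11.30, 11.27, 11.30 and 11.27 with estradiol, against 11.15, 11.13, 11.16 and 11.14 with vehicle. Each group agreed closely and the groups were separate, with a rise of 0.14 ± 0.04 (1.10-fold, adjusted p = 0.0276). This call was kept in 7 of 20 alternatives. The dimmer probe sets of ATP5IF1 differed by 0.04 and 0.14. With every probe set tested on its own, none of its 3 was called (limma adjusted p = 0.0632 to 0.660).

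**Figure D3:**
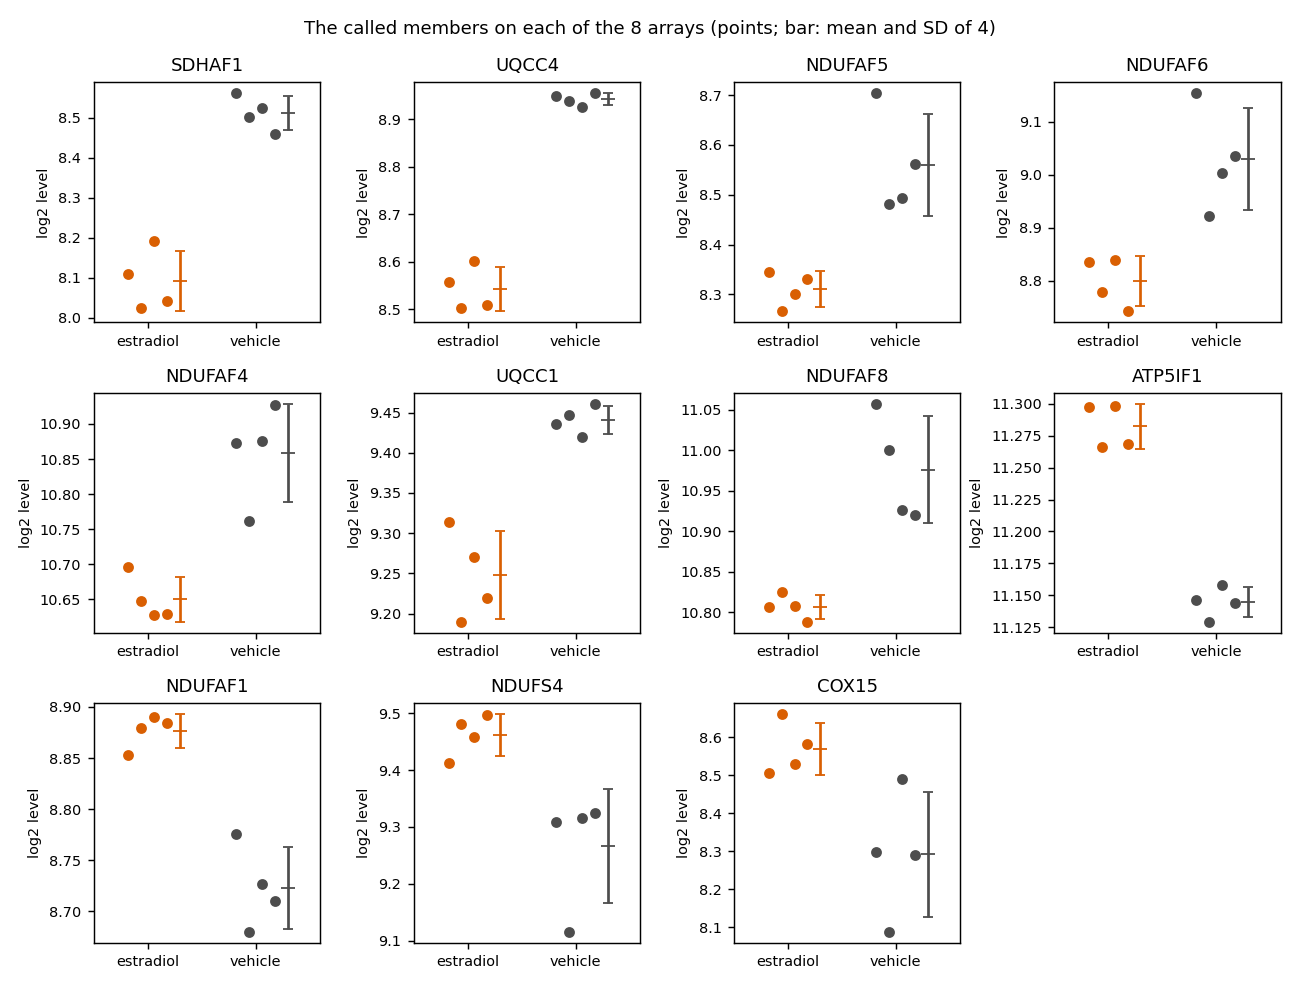
Log2 level of the 11 called genes on each of the 8 arrays, estradiol left and vehicle right, with a bar for the mean and SD of 4 arrays and an axis of its own for each gene. The groups are separate for all 11, widely for SDHAF1 (8.02 to 8.19 with estradiol, 8.46 to 8.56 with vehicle) and narrowly for COX15. These genes were chosen by their small adjusted p, so their separation adds no further support. Of all genes 24.1% were separate, and of those above the upper quartile 51.2%.

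The 11 calls were not equally firm. SDHAF1 and UQCC4 were called in all 20 alternatives. NDUFAF4 was called in 17 of 20, NDUFAF5 in 17 of 19, NDUFAF6 and UQCC1 in 15 of 20, and NDUFAF8 in 10 of 20. Of the rises, NDUFAF1 was called in 12, NDUFS4 and COX15 in 9 and ATP5IF1 in 7 of 20. With each array centred on its own median, NDUFAF4, NDUFAF5, NDUFAF6, NDUFAF8 and UQCC1 lost their calls, with limma adjusted p from 0.0640 to 0.167. That centring shifts all differences upward alike and also changes the spread within each group. What each of these contributed was not tested. The direction of these 11 genes was the same in every alternative run for them.

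Single arrays decided several calls (limma adjusted p in each case). The COX15 call was lost without any array except vehicle replicate 3 (0.0625 to 0.119). The ATP5IF1 call was lost without any estradiol array and without vehicle replicate 3 or 4 (0.0611 to 0.0769), and that of NDUFAF1 without any one of estradiol replicates 2, 3 and 4 and vehicle replicates 3 and 4 (0.0626 to 0.0753). The NDUFAF8 call was lost without any estradiol array and without vehicle replicate 1 (0.0526 to 0.0852), and that of NDUFAF6 without any one of estradiol replicates 2 and 4 and vehicle replicate 4 (0.0562 to 0.0662). NDUFAF4, NDUFAF5, UQCC1, SDHAF1 and UQCC4 were called without each of the 8 arrays in turn.

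Other probe sets of these genes bear on the falls. Among the 214 probe sets of the 109 genes 0 were called higher and 15 lower, 7.01%, when every probe set was tested on its own, against 13.1% of all 41097 probe sets with 1 symbol. Both probe sets of SDHAF1 and both of NDUFAF4 were called lower. The second probe sets of NDUFAF5 and NDUFAF6 differed by −0.21 and −0.31, and the third of NDUFAF5 by −0.08, without passing the test. UQCC6, whose brightest probe set differed by −0.15 and was not called, had a dimmer one that was called lower, by −0.21. The other 3 probe sets of UQCC1 differed by −0.08 to −0.01 and the other 2 of NDUFAF8 by −0.12 and −0.01, and averaging every probe set of the gene gave −0.08 for UQCC1 (limma adjusted p = 0.403) and −0.10 for NDUFAF8 (limma adjusted p = 0.428). Dimmer probe sets of CYCS, COX4I1, ATP5F1C, ATP5F1E, NDUFA5 and UQCR11 were called lower, by −0.50 to −0.23, while the brightest probe sets of these 6 genes differed by −0.06 to 0.07. Which part of a transcript each probe set reads was not analysed here.

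The 4 noncoding transcripts that the symbol rule takes in were counted apart. NDUFV2-AS1 differed by −0.25 ± 0.05 (SE, limma adjusted p = 0.00586) and NDUFB2-AS1 by −0.22 ± 0.07 (adjusted p = 0.0481), and both fell, at log2 levels of 4.68 and 6.19 where detection is unknown. The NDUFV2-AS1 difference was −0.12 for the mean of its probe sets and was not called (adjusted p = 0.133), and NDUFB2-AS1 was called in 6 of 19 alternatives. Their coding partners NDUFV2 and NDUFB2 differed by 0.06 ± 0.05 and −0.04 ± 0.04. The other 2, COX10-DT and NDUFV1-DT, differed by −0.13 ± 0.07 and −0.07 ± 0.08.

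Assembly factors with other names did not form a single pattern. The shares called were 25% for complex I, 66.7% for III, 23.5% for IV and 16.7% for V. Beside them, 17.9% of all genes and 35.5% of those above the upper quartile were called. Of the 12 measured for complex I, 1 rose, LYRM2 (0.23), and 2 fell, TMEM126B (−0.22) and DMAC1 (−0.14). For the mean of all probe sets LYRM2 differed by 0.11 (limma adjusted p = 0.280), and without probe sets of the shared types, whose probes can match several transcripts, TMEM126B differed by −0.12 (limma adjusted p = 0.597), and neither was called. DMAC1 was called in 8 of 20 alternatives. Of the 3 for complex III 2 fell: BCS1L, which inserts the Rieske iron-sulfur protein, had log2 levels of 9.83, 9.83, 9.81 and 9.84 with estradiol, against 10.21, 10.06, 10.08 and 10.13 with vehicle, and LYRM7, a chaperone of the same protein, had 9.58, 9.60, 9.53 and 9.54 with estradiol, against 9.87, 9.76, 9.86 and 9.94 with vehicle. Both differed by −0.29 (limma adjusted p = 0.00188 and 0.00271), and neither overlapped between groups. Of the 17 for complex IV 2 rose and 2 fell. SCO2, a copper chaperone, had 9.45, 9.45, 9.48 and 9.36 with estradiol, against 9.04, 8.97, 9.00 and 8.86 with vehicle, a rise of 0.47 ± 0.05 (SE, adjusted p = 0.000245). COA7 was lower, with 9.78, 9.91, 9.84 and 9.83 with estradiol, against 10.20, 10.18, 10.33 and 10.19 with vehicle, giving a difference of −0.39 ± 0.05 (adjusted p = 0.000668). Of the 6 for complex V 1 rose, DMAC2L (0.30, and 0.51 without probe sets of the shared types).

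Around the chain, the share of genes called differed between the feeding pathways. They stand beside 17.9% of all genes and 35.5% of those above the upper quartile. Of 16 tricarboxylic acid cycle genes 1 rose, IDH2 (0.32), a mitochondrial isocitrate dehydrogenase, and 0 fell, 6.25% in all. Of 13 genes of coenzyme Q synthesis 2 rose and 3 fell, 38.5%, with COQ5 (0.37), a methyltransferase of the pathway, and COQ8A (−0.30), an atypical kinase, as the largest. Of 8 other enzymes that pass electrons to coenzyme Q 2 rose, ETFDH (0.35), which serves fatty acid oxidation, and GPD2 (0.30), the glycerol phosphate dehydrogenase, and 1 fell, DHODH (−0.24), of pyrimidine synthesis, 37.5%. The DHODH call was kept in 7 of 19 alternatives, with a difference of −0.15 for the mean of its probe sets (limma adjusted p = 0.0949). None of 6 adenine nucleotide, phosphate and anion carriers was called, with VDAC1 at 0.40 ± 0.12 (SE, limma adjusted p = 0.0527) over vehicle arrays that spread between 10.90 and 11.47. None of 7 measured mitochondrially encoded transcripts was called, and they differed by −0.34 ± 0.15 (ND6) to 0.10 ± 0.08 (COX3).

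Genes that copy and express mitochondrial DNA, and the regulators upstream, included falls larger than any among the 109 genes. Of 11 measured genes of mitochondrial DNA expression 4 fell and 0 rose, 36.4% in all, with a median difference of −0.10. Beside them, 17.9% of all genes and 35.5% of the genes above the upper quartile were called. TWNK, the replicative helicase, had log2 levels of 7.76, 7.83, 7.83 and 7.64 with estradiol, against 8.41, 8.37, 8.25 and 8.41 with vehicle, giving a difference of −0.60 ± 0.06 (SE, 1.51-fold lower, limma adjusted p = 0.000138). TFB2M, a transcription initiation factor, had 10.75, 10.69, 10.75 and 10.72 with estradiol, against 11.23, 11.11, 11.12 and 11.25 with vehicle, giving a difference of −0.45 ± 0.05 (adjusted p = 0.000210). Neither gene overlapped between the groups. For the mean of all TFB2M probe sets the difference was −0.15 and was not called (adjusted p = 0.239). The accessory polymerase subunit POLG2 (−0.30) and the RNA polymerase POLRMT (−0.26) fell as well, POLRMT without a call for the mean of its probe sets (−0.19, limma adjusted p = 0.0565), while TFAM, which packs mitochondrial DNA, differed by −0.05 ± 0.05.

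Of 11 measured regulators of respiratory genes 3 fell and 0 rose, 27.3% in all. The share called was 17.9% of all genes and 35.5% of those above the upper quartile. MYC fell by 1.19 on the log2 scale, and the coactivators PPARGC1B and PPRC1 by 0.56 and 0.35. PPRC1 had log2 levels of 8.28 to 8.33 with estradiol and 8.60 to 8.68 with vehicle. PPARGC1B was dim, at 6.09 to 6.36 with estradiol and 6.62 to 6.93 with vehicle, and the mean of its probe sets differed by −0.33 and was called. The transcription factors NRF1 and GABPA, known activators of respiratory chain genes, differed by 0.02 ± 0.06 and 0.18 ± 0.08 (SE, limma adjusted p = 0.840 and 0.149).

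The neighbouring families of mitochondrial proteins are read against 17.9% of all genes and 35.5% of the genes above the upper quartile. Of 75 genes of mitochondrial ribosomal proteins 4 rose and 20 fell, 32.0% in all, with a median of −0.06, and all 75 lay above the upper quartile. Of 23 genes of the TIMM and TOMM import machinery 0 rose and 10 fell, 43.5%, with a median of −0.12. The subunits stand beside them at 2.44% and a median of 0.03 in the same fit. These families were set side by side with no test between them.

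**Figure D4:**
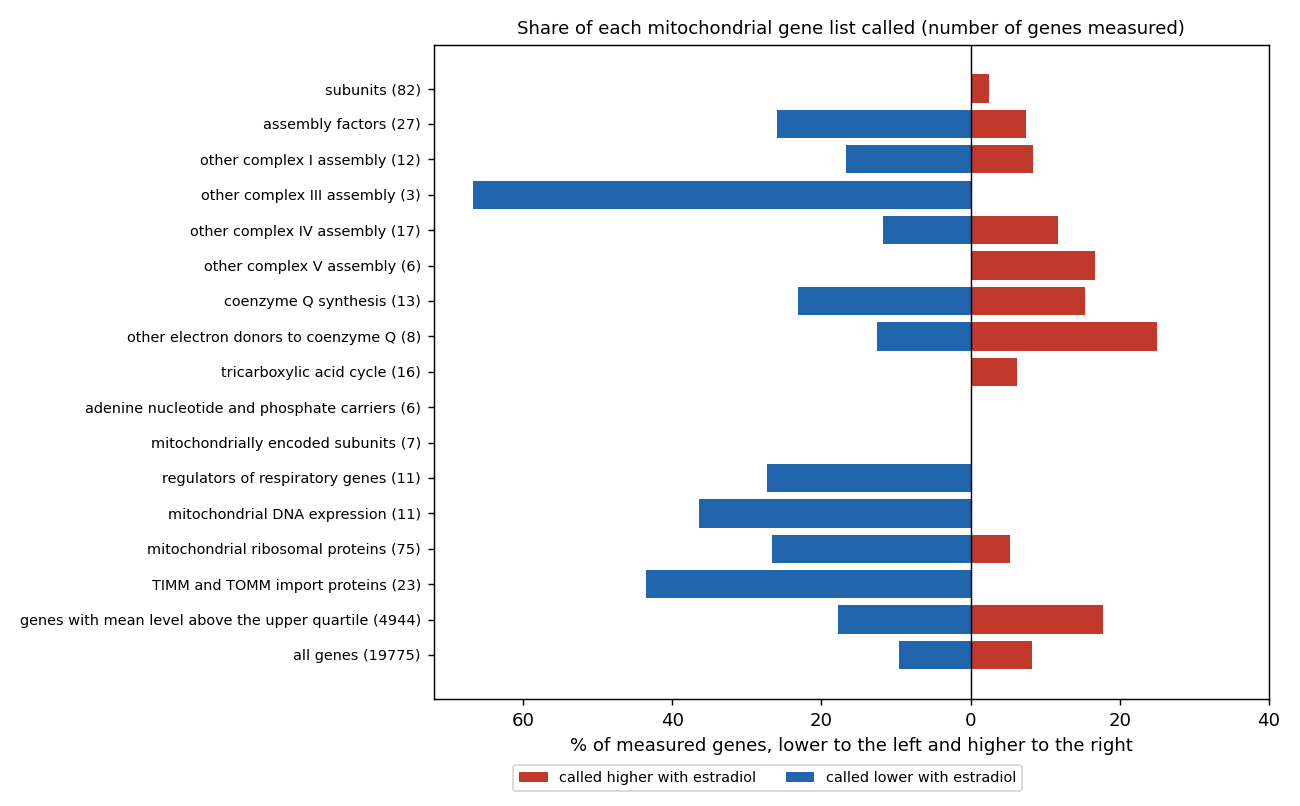
Percent of the measured genes of each list that were called lower (left of 0) and higher (right of 0) with estradiol, with the number of genes in brackets and all genes at the bottom. The bar of the 82 subunits is short, at 2.44% and to the right, while the bars of mitochondrial DNA expression and of the import proteins lie wholly to the left.

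The promoters were searched for 5 short motifs, each on both strands, in the 250 bases before the start, as RefSeq gives them for GRCh38.p14. The letters were GCGCATGCG for NRF1, CCGGAAG for ETS factors, CACGTG for the E-box, TTGCGCAA for C/EBP and AAGATGGCG for the YY1 core. The E-box and C/EBP letters read the same on both strands, and the NRF1 letters overlap their own reverse complement in GCGCATGCGC, which then gives a match on each strand. Promoters were found for 91 of the 109 genes, 67 of them subunits and 24 assembly factors. The NRF1 letters stood in 14.9% of the subunit genes and 8.33% of the assembly factor genes, against 2.74% of 15842 protein-coding genes and 1.64% of all 35116 promoters. The ETS letters stood in 23.9% and 33.3%, against 14.0% and 8.52%. The E-box stood in 8.96% and 16.7%, against 9.73% and 6.34%. The YY1 letters stood in 1.49% of the subunits and in 0 of 24 assembly factors, against 0.972% and 0.652%, and the C/EBP letters in 0 of 91, against 0.227% and 0.131%. By complex, the NRF1 letters stood in 4 of 31 subunit genes of complex I, 1 of 2 of complex II, 0 of 5 of complex III, 1 of 14 of complex IV and 4 of 14 of complex V.

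Of the 7 genes that fell, 6 had a promoter in the table, and among these the NRF1 letters stood in 0, the ETS letters in 2 and the E-box in 1. Of the 4 that rose, the ETS letters stood in 1 and the other 4 motifs in 0. In the 100 bases before the start the NRF1 letters stood in 7.46% of the subunits and 4.17% of the assembly factors, against 1.82% of protein-coding genes, the ETS letters in 19.4% and 20.8%, against 9.51%, and the E-box in 0 of 67 and 8.33%, against 5.44%. In that window the ETS letters stood in 1 of the 6 genes that fell and the E-box in 0, since the NDUFAF5 match lies farther out. These are matches of letters and not sites shown to be bound.

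Promoters of 4 subunits that were not called are shown because they hold the NRF1 letters, in capitals, and stand for complexes I, II and V. They are chr19:1383787-1383906 on the plus strand, chr11:112086753-112086872 on the plus strand, where the capitals further on mark the ETS letters on the opposite strand, chr4:674277-674376 on the minus strand and chr10:7788077-7788176 on the plus strand, of GRCh38.p14 from RefSeq, each ending at the base before the start.
NDUFS7: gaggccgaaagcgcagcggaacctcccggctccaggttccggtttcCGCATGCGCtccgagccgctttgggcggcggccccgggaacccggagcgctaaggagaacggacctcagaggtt
SDHD: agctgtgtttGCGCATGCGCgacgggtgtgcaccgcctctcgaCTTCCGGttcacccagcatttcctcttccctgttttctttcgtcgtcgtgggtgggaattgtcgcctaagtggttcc
ATP5ME: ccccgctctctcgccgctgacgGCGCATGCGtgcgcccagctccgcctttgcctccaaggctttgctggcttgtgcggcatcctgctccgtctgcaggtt
ATP5F1C: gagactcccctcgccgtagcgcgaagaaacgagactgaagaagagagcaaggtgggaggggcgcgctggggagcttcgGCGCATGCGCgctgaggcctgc

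The 4 genes belong to the core of complex I, the membrane anchor of complex II, the membrane part and the central stalk of the ATP synthase. Their differences were 0.07 ± 0.04 for NDUFS7, 0.05 ± 0.05 for SDHD, 0.09 ± 0.04 for ATP5ME and −0.06 ± 0.04 for ATP5F1C (SE, log2 scale), and none was called.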

How the data were processed

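The values deposited by the authors are log2 expression values from RMA, a method named without a version in the submitters' processing notes (per the labels). It corrects background, equalizes the distributions of the arrays and summarizes probe sets. The deposited log2 values ran from 1.92 to 14.39. Of 54675 probe sets 41097 had 1 gene symbol in the platform annotation, 1801 had several and 11777 had none listed. RefSeq matched 41043, and 0 symbols changed. Groups came from the sample titles.

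A linear model with moderated variances (limma 3.58.1 in R 4.3.3, eBayes without trend or block, two-sided) compared estradiol with vehicle for 19775 genes over all 8 arrays. Genes were called at a Benjamini-Hochberg adjusted p below 0.05 over all genes. Errors of differences are moderated standard errors. The script was tested on simulated data. Figures were drawn with matplotlib 3.10.9.

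The members and the 11 other lists (110 of 119 genes measured) were chosen with earlier results of these data known. Genes to be named were called members with a difference of at least 0.25 in size, the largest rise and fall of each complex, core subunits, SDHA to SDHD, CYC1, CYCS, alternative isoforms and up to 2 genes of each list. All other genes named, the remaining called members among them, were chosen after their values were seen. Of markers of other cells, 2 of 3 of T and B cells, 0 of 2 of monocytes, 1 of 2 of fibroblasts and 1 of 2 of epithelium lay above every array median.

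Alternatives covered scaling, dim genes, probe sets, the variance model, array weights, the threshold, the replicate number as a block and each array left out. The refit above the upper quartile and the subset of nuclear subunits were added after seeing the data. Motifs were also searched in 100 bases, and other called genes that the text names were added to the alternatives after their values were seen.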

Additional observations from a re-analysis of the deposited data

Results flagged for a closer look

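Among 138 groups of 4 arrays tested, 6 held an array that lay far from the other 3, and chance alone marks about 1 group in 20. In 4 of the 6 the array was vehicle replicate 2, which was low. NDUFS4 had a log2 level of 9.12 on it against 9.31 to 9.32 on the rest, NDUFS1 had 10.18 there and 10.30 to 10.31, and PPARGC1B had 6.62 there and 6.88 to 6.93. The mean level of the complex II genes was 9.21 there and 9.33 to 9.35 in the others. COX2 was high in estradiol replicate 2, at 14.03, where the others had 13.97. COA7 was high in vehicle replicate 3, at 10.33, where the others had 10.18 to 10.20.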

How the results depend on the processing

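The median difference of the assembly factors lay below 0 in all alternatives run, and SDHAF1 and UQCC4 were called in all 20. Of 24 counts and medians under 474 alternatives in all, 327 stayed within 1.5 times the count or within the spread, and 147 moved. Correlations of the deviations of same-numbered samples were −0.0483, −0.209, 0.0857 and 0.111 for numbers 1 to 4, and not every array correlated best with its own number. The labels do not say whether the numbers pair the samples. These correlations cannot decide whether same-numbered samples shared a culture or batch. With the replicate number as a block, 0 members were called higher and 4 lower, 0 subunits, 0 assembly factors higher and 4 lower, 2 genes of complex I, 1 of complex III, 0 of complex IV, 0 of complex V and 5 import genes. With an adjusted p below 0.01 the counts were 0 members higher and 2 lower, 0 subunits, 0 assembly factors higher and 2 lower, 0 genes of complex I, 1 of III, 0 of IV and 0 of V, 4 rises in the other lists, 4 import genes and 2179 of all genes. The counts under limits on dim genes were as follows where they moved by over 1.5 times. Above the lower quartile there were 4 subunits, 4 genes of complex III, 2 of complex IV and 16 rises in the other lists. Above the median there were 10 members higher and 11 lower, 8 subunits, 4 genes of complex III, 3 of IV and 4 of V, 17 rises in the other lists and 16 import genes. Above the upper quartile there were 17 members higher and 15 lower, 16 subunits, 4 assembly factors higher and 12 lower, 17 genes of complex I, 4 of III, 6 of IV and 4 of V, and 17 rises in the other lists. The variance trend with a robust fit gave 16 members higher and 14 lower, 17 subunits, 16 genes of complex I, 4 of III, 5 of IV and 4 of V, and 18 rises in the other lists. Array weights gave 4 genes of complex III, 2 of IV and 15 rises in the other lists. With median centring there were 2 members lower, 1 subunit, 2 assembly factors lower, 2 genes of complex I, 1 of III and 0 of V, 11 ribosomal protein genes and 5 import genes lower, and medians of 0.0528 for members, 0.0585 for subunits, 0.0551 for complex I, −0.0123 for III, 0.0559 for IV and 0.0549 for V. Centring on the 75th percentile gave 1 subunit, 2 genes of complex IV and 0 of V, and medians of −0.00419 for members, 0.00147 for subunits, −0.0693 for complex III, −0.00116 for IV and −0.00216 for V. Quantile normalization gave 12 members and 11 assembly factors lower, 4 genes of complex III, 3 of IV and 0 of V, 16 import genes, and medians of 0.00611 for subunits, −0.0727 for complex III, −0.00799 for IV and 0.00526 for V. The mean of all probe sets gave 1 member and 1 assembly factor higher, 0 genes of complex V, and medians of −0.00190 for members, 0.00266 for subunits, −0.0752 for complex III and −0.0190 for V. Without probe sets of the shared types there were 0 members higher, 0 assembly factors higher and 4 lower, 2 genes of complex I, 7 falls in the other lists, 8 ribosomal protein genes, 5 import genes and 2343 of all genes, and medians of 0.00599 for subunits, −0.000238 for complex IV and 0.00363 for V. Leaving out 1 array at a time gave 0 to 3 members higher and 5 to 9 lower, 0 to 2 subunits, 0 to 1 assembly factors higher and 5 to 9 lower, 2 to 7 genes of complex I, 2 to 3 of III, 0 to 1 of IV and 0 to 1 of V, 8 to 10 rises and 13 to 19 falls in the other lists, 15 to 20 ribosomal protein genes, 5 to 13 import genes, 4 to 5 genes of mitochondrial DNA expression and 2732 to 3551 of all genes. The medians ran from 0.01 to 0.03 for members, 0.02 to 0.04 for subunits, −0.10 to −0.07 for assembly factors, 0.01 to 0.03 for complex I, 0.01 to 0.05 for II, −0.06 to −0.04 for III, 0.02 to 0.04 for IV and 0.02 to 0.03 for V. The cause of these shifts was not tested beyond what each setting changes.

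The sign of the medians of all members and of complexes IV and V turned under some scalings or probe set choices, and each such median lay within 0.02 of 0. Only 4 arrays a group were available, detection of dim probe sets is unknown, and probe sets that carry several symbols were not used.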
